A study of Mus musculus with 19 samples.

Results

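The cadherins, protocadherins and synaptic adhesion molecules described here are 48 of the 12629 genes in the deposited expression table. They were chosen by gene symbol and not by any measured value: protein coding genes named Cdh with a number, Pcdh, Ctnna, Ctnnb or Ctnnd, Cadm1 to Cadm4, Nrxn, Nlgn and Cntn1 to Cntn6, together with Ncam1, Ncam2, L1cam, Chl1, Nrcam and Nfasc. By role they were 11 cadherins, 9 genes with a catenin name, 4 clustered protocadherins, 6 other protocadherins, 9 synaptic adhesion molecules (neurexins, neuroligins and the Cadm family) and 9 axonal adhesion molecules of the immunoglobulin superfamily. The catenin-named genes included Ctnnal1, Ctnnbl1 and Ctnnbip1, which share the name but are not the catenins that bind the tails of cadherins.

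RNA was sequenced from dorsal root ganglion (DRG) cells that had been sorted on their GFP fluorescence after injection of AAV5 vectors into left cervical ganglia, with 8 weeks between injection and harvest. The GFP-naive group (5 libraries) carried fGFP, a form of GFP, under the CMV promoter, and the GFP-crush group (4 libraries) carried the same vector and a crush of the dorsal roots, the central branches of the sensory axons. The α9k1-naive group (6 libraries) carried the integrin subunit α9, tagged with V5 and driven by the CAG promoter, and a fusion of kindlin-1 to GFP driven by CMV, while α9k1-crush (4 libraries) carried both of these and the crush. All animals thus carried AAV5 and a form of GFP, neither promoter is restricted to one type of neuron, and in the α9k1 groups cells were selected on kindlin-1-GFP, so a sorted cell did not have to carry α9. The labels give the animals as C57BL/6 mice, whereas the study's methods describe adult male Lewis rats with alignment to the mouse genome. Between 47.5 and 54.1% of reads aligned, with 3.87 to 4.05% mismatched bases, and species could not be settled from the sources used here. The labels call the material DRG neurons and do not say whether libraries came from separate animals. The study calls them biological replicates, and the p-values measure the spread between these libraries.

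Cadherins hold neighbouring cells together through calcium-dependent binding between molecules of the same or a related kind, and their tails are tied to actin by β-catenin, α-catenin and p120 (δ) catenins. Protocadherins are a larger branch of the same superfamily, of which the clustered genes are transcribed from alternative first exons and give neurons a molecular identity. Neurexins, neuroligins and the Cadm (SynCAM) proteins bind across the synaptic cleft, and in peripheral nerve Cadm3 on the axon binds Cadm4 on the Schwann cell, while L1-family proteins and contactins act in axon growth and bundling and at the node of Ranvier.

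The libraries held 36.4 M to 87.6 M read pairs, and each correlated with the others of its group at a median r between 0.9546 and 0.9701. Fermt1, which encodes kindlin-1, ranged from 0.42 to 0.80 on the log2 scale over the GFP libraries and from 5.18 to 7.73 over the α9k1 libraries. Itga9 ranged from 0.90 to 2.40 in GFP and from 2.38 to 7.51 in α9k1, and the lowest α9k1-naive value lay just under the highest GFP-naive one. All 12 pan-neuronal markers were measured, and so were all 16 markers of satellite glia and Schwann cells. The log2 of the summed neuronal markers was 13.3 to 13.7 in GFP-naive, 12.6 to 13.0 in α9k1-naive, 13.9 to 14.4 in GFP-crush and 13.9 to 14.4 in α9k1-crush. The glial sum was 15.8 to 16.2, 16.3 to 16.8, 15.2 to 15.5 and 14.5 to 15.2 in the same groups, and Apoe was its most abundant gene, with means from 14.3 to 16.5. The sum did not show how most of the list moved: in α9k1-naive against GFP-naive 8 of the 16 glial markers were lower and 4 higher, with a median log2 fold change of -0.52. Among other cells, 10 of 13 macrophage markers (Cx3cr1, Itgam and Mrc1 were not in the table), 6 of 8 endothelial markers (Kdr and Pecam1 were not) and 7 of 8 fibroblast and pericyte markers (Pdgfra was not) were measured. The fibroblast and pericyte sum was 9.48 to 9.78 in GFP-naive, 6.82 to 8.27 in α9k1-naive, 8.17 to 8.49 in GFP-crush and 7.97 to 8.39 in α9k1-crush. The macrophage sum was 7.64 to 8.14 in GFP-naive, 8.99 to 9.62 in α9k1-naive, 9.35 to 9.92 in GFP-crush and 9.15 to 10.04 in α9k1-crush. The endothelial sum was 6.86 to 7.42 in GFP-naive, 4.82 to 6.36 in α9k1-naive, 6.78 to 7.53 in GFP-crush and 5.17 to 6.61 in α9k1-crush, and all 6 endothelial markers were lower in α9k1-naive than in the GFP libraries without crush. All 8 nociceptor markers were measured, and their sum was 11.6 to 12.6 in GFP-naive, 12.4 to 13.2 in α9k1-naive, 11.3 to 12.6 in GFP-crush and 11.6 to 12.2 in 3 of the α9k1-crush libraries, while α9k1-crush 1 lay at 9.02. All 8 had a log2 fold change below 0 in α9k1-crush against α9k1-naive, with a median of -1.22, and 1 of them was called lower, or 5 without covariates, where 27.1% of all genes were lower. Of the calls of adhesion genes, leaving out α9k1-crush 1 ended that of Nfasc in α9k1-crush against α9k1-naive. The part of these markers in the results was not tested. None of the 6 B and T cell markers was in the table. The 9 immediate early and dissociation genes, which respond to stimulation and to handling of cells, summed to 11.7 to 12.1, 13.2 to 13.7, 10.5 to 10.9 and 11.9 to 12.5 in the groups in the same order. Many adhesion genes are used by glia as well as neurons, and in these bulk samples fewer cells of a type and less RNA per cell cannot be told apart. The part of these marker levels in the results on adhesion genes was not tested.

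**Figure D1:**
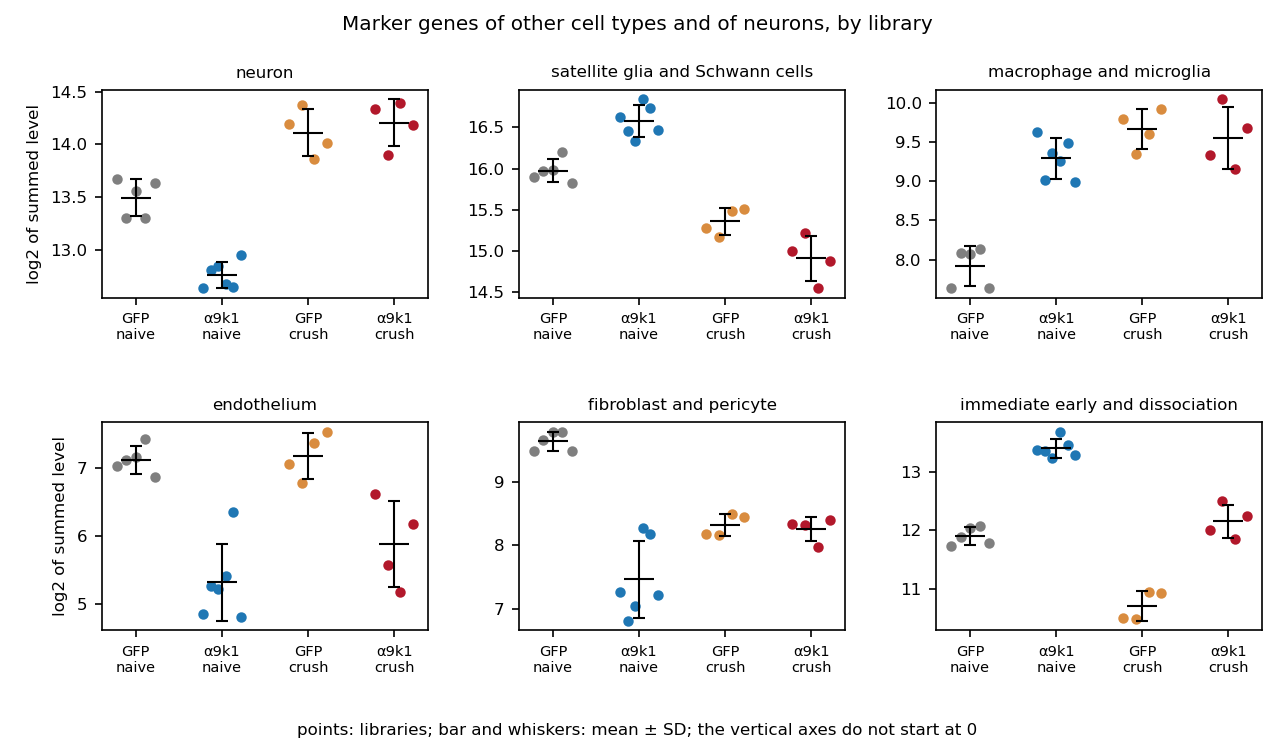
Log2 of the summed level of 6 marker lists in each library (points), with the mean ± SD of each group. The neuronal sum was lowest in the 6 α9k1-naive libraries (12.6 to 13.0), whereas the glial sum, which Apoe dominates, was highest there (16.3 to 16.8) and the fibroblast and pericyte sum was highest in GFP-naive (9.48 to 9.78).

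Levels are given as deposited, on a log2 scale, and differences as log2 fold changes from limma with the standard error (SE), fitted over all 19 libraries with 3 covariates built from the library metrics. A gene was called when its Benjamini-Hochberg adjusted p over all 12629 genes was under 0.1, the threshold of the study. GFP-crush set against GFP-naive is called the GFP crush comparison here, α9k1-crush set against α9k1-naive the α9k1 crush comparison, and α9k1-naive set against GFP-naive the naive comparison. In the GFP crush comparison 23 of the 48 (47.9%) were lower, where 15.7% of all genes were, and 2 (Cdh13 and Cadm3) were higher, where 7.39% of all genes were. Of the 9 immediate early and dissociation genes, 8 were also lower there, with a median of -1.20, and 4 were lower in the α9k1 crush comparison, while all 9 were higher in the naive comparison. Their part in the results was not tested. In the α9k1 crush comparison 5 (10.4%) were higher (Pcdhac1, Cdh13, Cadm3, Cdh18 and Nfasc) against 4.47% of all genes, and 5 (10.4%) were lower (Cdh2, Cdh15, Cdh1, Ncam1 and Pcdh9) against 5.27%. The α9k1 counts depended on the fit, and the shares of all genes moved with them. Without the covariates 13 were higher and 20 lower, where 28.5% of all genes were higher and 27.1% lower. With only the 2 groups compared 1 and 2 were, against 0.507% and 1.09%, and without α9k1-crush 2 it was 8 and 11, against 6.14% and 7.66%. In the GFP crush comparison 1 was higher and 28 were lower without the covariates, against 11% and 20.1%, and 1 and 11 with only the 2 groups compared, against 2.07% and 5.24%.

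Without crush, 3 were higher in α9k1-naive (Pcdh9, Cdh15 and Cadm1) against 11.4% of all genes, and 10 (20.8%) were lower against 17.6%, a share close to that of all genes. The 10 were Cadm3, Pcdhac1, Nfasc, Cadm2, Cdh13, Pcdhac2, Ctnnal1, Cntn1, Pcdh11x and Nrcam. With libraries centred on their median the naive comparison gave 7 higher and 9 lower (all genes 13.1% and 13.7%), and with quantile normalization 5 and 9 (all genes 12.8% and 15.5%). Without the covariates it gave 12 higher and 14 lower, against 16.5% and 29.5% of all genes. In α9k1-crush versus GFP-crush limma called no adhesion gene in either direction, where 0.728% of all genes were higher and 0.182% lower. An unadjusted p under 0.05 was reached there by 3 adhesion genes and by 9.11% of all genes, and a fit without the covariates called 26 higher and 8 lower, against 29.6% and 28.3% of all genes. No interaction (the α9k1 difference after crush minus that without crush) was called either, against 1.35% higher and 0.847% lower over all genes, and 10 had an unadjusted p under 0.05, as did 14% of all genes. Without the covariates 20 interactions were called higher and 4 lower, against 23.3% and 16.1% of all genes.

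**Figure D2:**
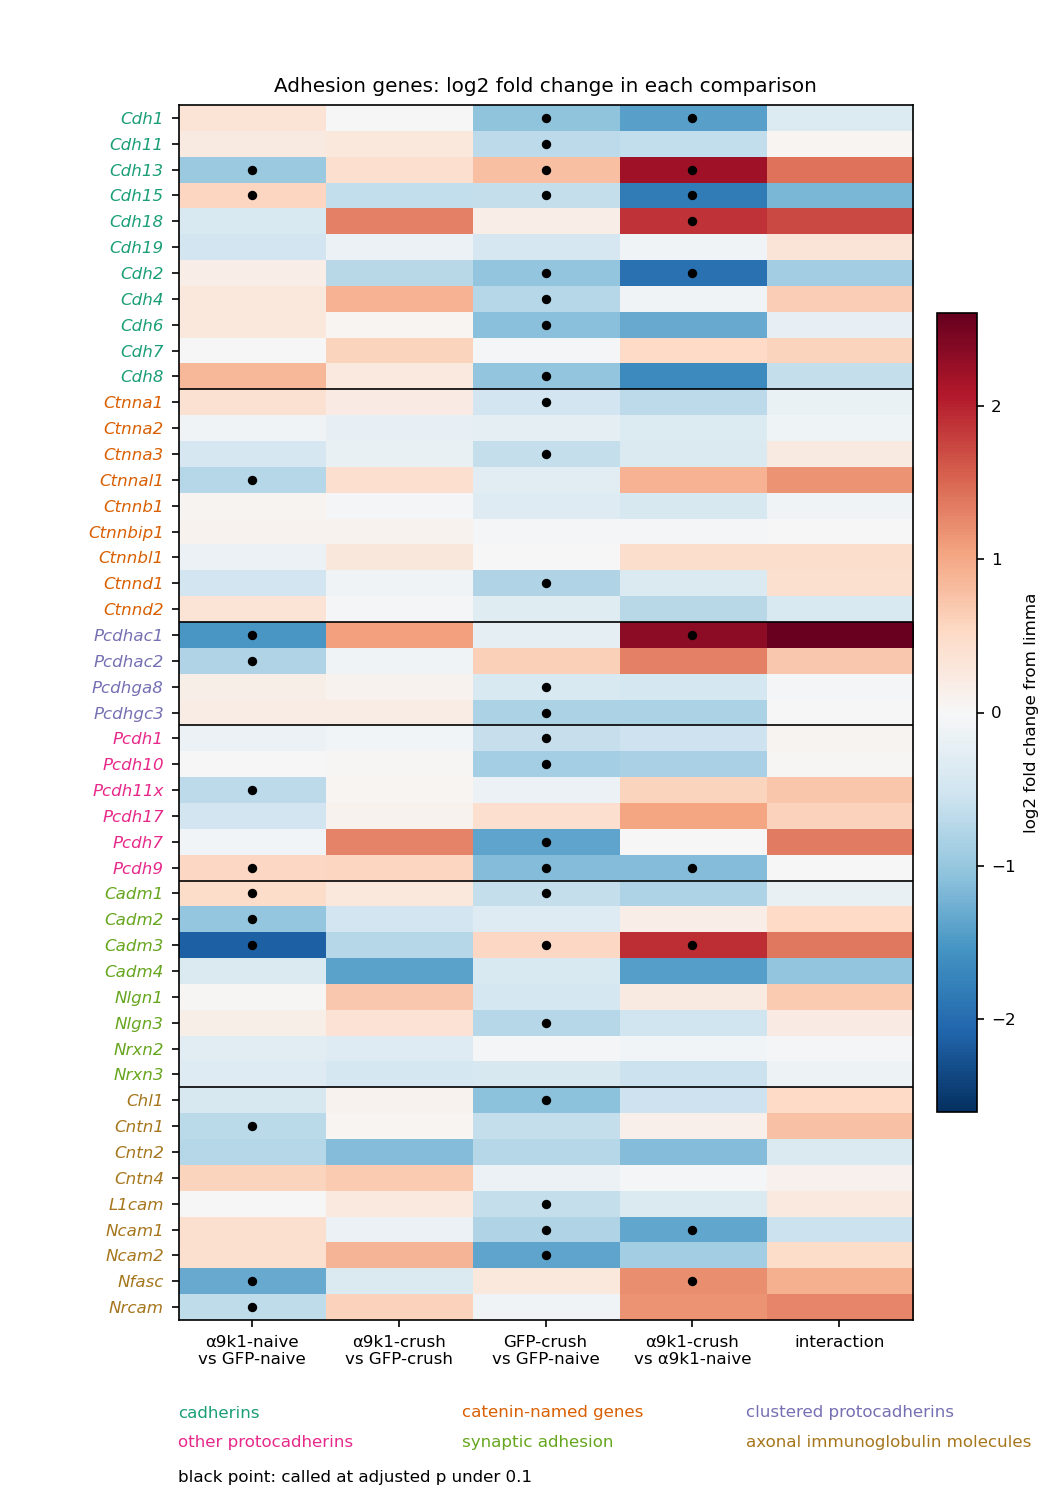
Log2 fold change of 47 of the 48 adhesion genes (rows, coloured by role) in the 4 comparisons and the interaction (columns), with a black point where the gene was called at an adjusted p under 0.1. In the column of the GFP crush comparison 22 of the genes drawn were called lower and 2 higher, and no point stands in the α9k1-crush versus GFP-crush or the interaction column.

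In the GFP crush comparison the libraries of the groups were fully separated for 26 adhesion genes (54.2%), where they were for 19.8% of all genes, and in the α9k1 crush comparison for 22 (45.8%), against 33.4%. In the naive comparison the 11 without overlap (22.9%) stood against 21.7%, and in α9k1-crush versus GFP-crush the 23 (47.9%) stood against 40.8%. Across all 48, the median log2 fold change was -0.48 in the GFP and -0.38 in the α9k1 crush comparison (-0.55 and -0.15 without the covariates), where the medians of all genes were -0.08 and 0.00. It was -0.03 in the naive comparison and 0.09 in α9k1-crush versus GFP-crush (0.41 without the covariates), where all genes had -0.08 and 0.01. Of the 48, 14 were called in no comparison with the covariates, among them Ctnnb1, Ctnna2, Ctnnd2, Cdh19, Nrxn2, Nrxn3, Nlgn1, Cadm4, Cntn2 and Cntn4.

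Some calls were lost in other fits of the same data. With only the 2 groups compared, 3 of the 10 calls of the α9k1 crush comparison were kept (Cdh1, Cdh15 and Pcdhac1), with Cdh1 at -2.35 (adjusted p 0.0963) and Pcdhac1 at 4.62 (adjusted p 0.0785) in that fit, and the adjusted p of the other 7 was 0.111 for Cdh2, 0.135 for Cdh18, 0.141 for Pcdh9, 0.182 for Ncam1, 0.203 for Cdh13, 0.204 for Cadm3 and 0.359 for Nfasc. In the GFP crush comparison 11 of the 25 calls were kept in that fit (Cdh1, Cdh6, Cdh11, Ctnnd1, Pcdh7, Pcdh9, Pcdh10, Ncam1, Ncam2, L1cam and Chl1). In the naive comparison 10 of 13 were kept, and Nrcam, Pcdhac2 and Cntn1 were lost. Of the GFP crush calls, median centring ended Cdh4, Cdh8, Ctnna1 and Pcdhga8, removal of GC and length trends ended Cdh4, Cdh8, Pcdh1 and Pcdhga8, and quantile normalization ended Cdh4 and Cdh8. In the naive comparison median centring ended Cntn1 and quantile normalization ended Nrcam.

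Among the 11 cadherins, 7 were lower and 1 was higher in the GFP crush comparison, and 3 were lower and 2 higher in the α9k1 one. Over all genes 15.7% were lower and 7.39% higher in the first and 5.27% lower and 4.47% higher in the second, and the counts of the other roles below stand against the same shares. Of the 16 glial markers, 6 were lower and 1 higher in the GFP and 5 were lower and 6 higher in the α9k1 crush comparison, and their part in the counts of cadherins was not tested. Cdh1 encodes E-cadherin, the epithelial cadherin that also holds the membrane folds of myelinating Schwann cells together, and lies at chr8:106603351-106670246 (GRCm38). Cdh1 stood at 7.22, 7.46, 7.14, 7.49 and 7.11 in the GFP-naive libraries, and ran from 7.47 through a median of 7.84 to 8.00 in α9k1-naive. With crush, Cdh1 stood at 5.96, 6.02, 6.31 and 6.30 in GFP and at 6.64, 6.84, 6.42 and 6.12 in α9k1. Every crush library lay below every naive library for Cdh1. The log2 fold change was -1.06 ± 0.19 (SE, adjusted p 0.0029) in GFP and -1.42 ± 0.34 (SE, adjusted p 0.0272) in α9k1, and each call was made in all 19 fits that left out 1 library.

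Cdh2, on chromosome 18, encodes N-cadherin, the main classical cadherin of neurons and glia. Cdh2 was at 4.96, 4.86, 4.83, 4.84 and 4.82 in the GFP-naive libraries, and ran from 4.85 through a median of 5.15 to 5.37 in α9k1-naive. With crush, Cdh2 was at 2.75, 4.39, 4.40 and 3.57 in GFP and at 3.87, 4.27, 4.24 and 3.93 in α9k1. All crush values were below all naive values, though the GFP-crush libraries ranged from 2.75 to 4.40. limma gave a fold change of -1.03 ± 0.28 (SE, adjusted p 0.0267) in GFP and -1.93 ± 0.51 (SE, adjusted p 0.0389) in α9k1. The value in α9k1 depended on the covariates, since without them it was -1.03 with an adjusted p of 0.00136.

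Cdh15 (M-cadherin, first described in muscle, chr8:122848374-122867397) was also called lower with crush in both backgrounds. Cdh15 lay at 6.48, 6.47, 6.33, 6.67 and 6.06 in the GFP-naive libraries, and ran from 6.74 through a median of 6.98 to 7.04 in α9k1-naive. With crush, Cdh15 lay at 5.64, 5.78, 5.87 and 5.70 in GFP and at 5.31, 5.50, 4.98 and 4.65 in α9k1. The 4 groups did not overlap in any of the 4 comparisons, and the order was α9k1-naive, GFP-naive, GFP-crush and α9k1-crush from high to low. Fold changes were -0.63 ± 0.19 (SE, adjusted p 0.0406) in GFP, -1.82 ± 0.34 (SE, adjusted p 0.00769) in α9k1 and 0.55 ± 0.19 (SE, adjusted p 0.0503) in the naive comparison. The GFP call was lost (adjusted p 0.138 without GFP-naive 2), as was the naive call (0.211 without α9k1-naive 6). The sum of the glial markers had the same order of group means as Cdh15, from 16.6 in α9k1-naive through 16.0 and 15.4 to 14.9 in α9k1-crush. Sox10, a transcription factor of the glial lineage, had means of 6.78, 8.37, 7.76 and 6.35 in those groups. Their part in the result for Cdh15 was not tested.

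Cdh13 and Cdh18 went the other way. Cdh13 encodes T-cadherin, which lacks the usual tail and is held in the membrane by a lipid anchor, and lies at chr8:118283733-119324921. Cdh13 stood at 5.82, 5.52, 5.99, 5.90 and 5.68 in the GFP-naive libraries, and ran from 4.61 through a median of 5.04 to 5.78 in α9k1-naive. With crush, Cdh13 stood at 6.15, 6.39, 6.13 and 6.48 in GFP and at 6.81, 6.58, 7.07 and 6.85 in α9k1. Crush libraries were above naive ones without overlap in GFP and in α9k1. This corresponded to a fold change of 0.79 ± 0.25 (SE, adjusted p 0.0434) in GFP and 2.21 ± 0.44 (SE, adjusted p 0.00993) in α9k1, and Cdh13 was lower in the naive comparison at -0.97 ± 0.24 (SE, adjusted p 0.0108). In GFP the call was lost in 2 of the 19 fits (adjusted p 0.146 without GFP-naive 2, 0.119 without GFP-crush 2) and without covariates, where the fold change was 0.50 with an adjusted p of 0.108. The 6 α9k1-naive libraries fell apart for Cdh13, with 3 between 4.61 and 4.67 and 3 between 5.42 and 5.78.

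Cdh18, a type II cadherin of the nervous system at chr15:22549022-23474418, was called in the α9k1 crush comparison. Cdh18 was at 3.43, 3.54, 3.40, 3.01 and 2.90 in the GFP-naive libraries, and ran from 2.36 through a median of 3.05 to 3.5 in α9k1-naive. With crush, Cdh18 was at 3.57, 3.95, 2.98 and 3.30 in GFP and at 5.09, 4.47, 5.01 and 5.13 in α9k1. The 4 α9k1-crush libraries lay above all 15 others. The fold change was 1.89 ± 0.51 (SE, adjusted p 0.0436) in the α9k1 crush comparison, and 0.17 ± 0.28 (SE, adjusted p 0.728) in the GFP crush comparison. The difference between these, the interaction, was 1.72 ± 0.58 (SE, adjusted p 0.188) and was not called. Without 1 of 2 libraries the α9k1 call was lost (adjusted p 0.116 without α9k1-naive 1, 0.169 without α9k1-naive 4).

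The type II cadherins Cdh6, Cdh8 and Cdh11 and the classical Cdh4 (R-cadherin) were lower in the GFP crush comparison. Cdh6 moved from 4.84 ± 0.25 (SD, n = 5) to 3.73 ± 0.30 (n = 4), a fold change of -1.09 ± 0.26 (SE, adjusted p 0.014) that was called in all 19 fits leaving out 1 library. With α9k1 the Cdh6 values were 5.28 ± 0.38 (n = 6) and 4.31 ± 0.35 (n = 4), with a fold change of -1.31 ± 0.47 (SE, adjusted p 0.12) that was not called. Cdh11 had -0.67 ± 0.21 (SE, adjusted p 0.0414) in GFP and was lost in 4 of the 19 fits (adjusted p 0.105 to 0.112, without GFP-naive 3 or GFP-crush 1, 2 or 4). Cdh4 had -0.74 ± 0.26 (SE, adjusted p 0.0702), with overlapping groups, and was called in 12 of 19 fits. The 7 losses of Cdh4 were at an adjusted p of 0.101 to 0.182, without GFP-naive 4 or 5, α9k1-naive 6, GFP-crush 1 or 4 or α9k1-crush 3 or 4. Cdh8, with means of 2.21 ± 0.55 in GFP-naive and 1.31 ± 0.07 in GFP-crush, had -1.03 ± 0.39 (SE, adjusted p 0.0862) and overlapping groups, and remained called only without GFP-naive 3, α9k1-naive 2, 4 or 5, or α9k1-crush 1 or 2, with an adjusted p up to 0.271 without any other single library. Cdh19, the cadherin of the Schwann cell lineage, was called in no comparison with the covariates, at -0.43 ± 0.23 in the GFP crush comparison and -0.10 ± 0.41 in α9k1. Its GFP groups did not overlap, and in limma without the covariates the GFP difference was -0.59 (adjusted p 0.0341).

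**Figure D3:**
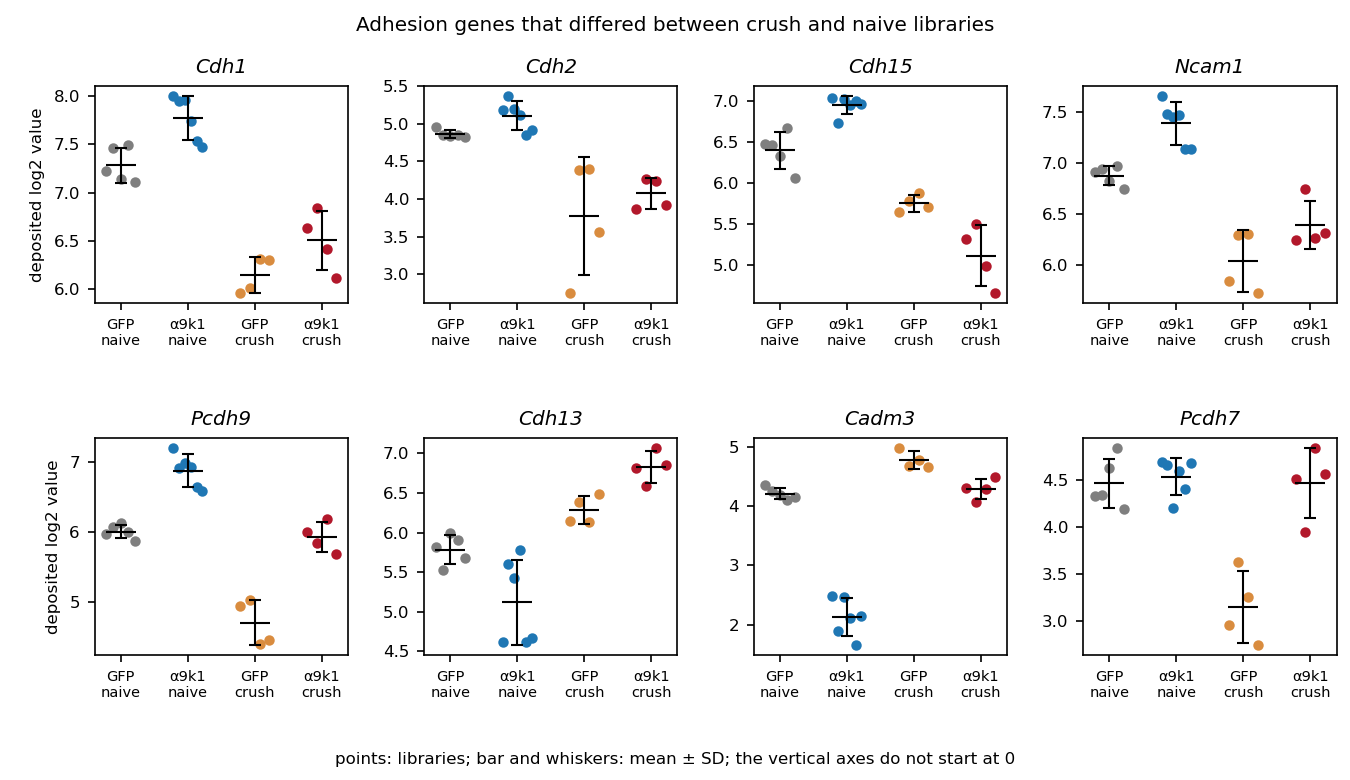
Deposited log2 value of 8 adhesion genes in each library (points), with the mean ± SD of each group. Within GFP and within α9k1, Cdh1, Cdh2, Cdh15, Ncam1 and Pcdh9 are lower in crush than in naive libraries and Cdh13 and Cadm3 are higher, and Pcdh7 runs from 2.75 to 3.62 in GFP-crush and from 3.95 to 4.83 in α9k1-crush.

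Adhesion genes called in the same direction in both crush comparisons were Cdh1, Cdh2, Cdh15, Ncam1 and Pcdh9 (lower) and Cdh13 and Cadm3 (higher). The RefSeq table of promoters (GRCm38.p6) matched 30 of the 41 members looked up in it and held Cdh15, Pcdh9 and Cadm3. Their 250 bases before the transcription start are shown, since these members were called the same way in 2 comparisons with no library in common. Letters are the mouse reference, 5′ to 3′ on the strand of the gene, and capitals mark a match to the AP-1 motif TGANTCA.
Cdh15 (chr8:122848124-122848373, plus strand): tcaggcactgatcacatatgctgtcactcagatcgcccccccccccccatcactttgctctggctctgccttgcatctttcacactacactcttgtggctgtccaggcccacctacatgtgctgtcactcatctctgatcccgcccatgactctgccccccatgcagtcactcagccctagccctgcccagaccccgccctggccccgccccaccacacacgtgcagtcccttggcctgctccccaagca
Pcdh9 (chr14:93890680-93890929, minus strand): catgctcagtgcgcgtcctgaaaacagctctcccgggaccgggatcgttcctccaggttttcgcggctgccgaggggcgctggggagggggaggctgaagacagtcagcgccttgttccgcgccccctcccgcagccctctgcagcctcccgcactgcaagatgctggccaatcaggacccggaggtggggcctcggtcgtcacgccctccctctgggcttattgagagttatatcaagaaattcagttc
Cadm3 (chr1:173367696-173367945, minus strand): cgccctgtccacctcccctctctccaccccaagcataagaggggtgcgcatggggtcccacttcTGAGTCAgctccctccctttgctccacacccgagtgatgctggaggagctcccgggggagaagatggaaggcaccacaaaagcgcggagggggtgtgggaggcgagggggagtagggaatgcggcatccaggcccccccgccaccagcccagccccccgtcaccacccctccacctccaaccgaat
Pcdh9 has 2 starts in the table, and the window of the one farther upstream is printed. The motif, read on both strands, was found 1 time in Cadm3, starting at position -186 from the transcription start, and in neither of the other printed windows. It was present in 6.75% of all 32851 such windows and in 3 of the 46 windows of adhesion genes (6.52%). The E-box CAGGTG, searched on both strands, was in none of the 3 printed windows, in 17.2% of all windows and in 13.0% of those of adhesion genes. The GC content was 62.0% for Cdh15, 63.6% for Pcdh9 and 66.8% for Cadm3. A match of letters is not a bound site, and no binding was measured here.

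Of the 9 catenin-named genes, 3 were lower in the GFP crush comparison (Ctnnd1, Ctnna3 and Ctnna1) and none was called in the α9k1 crush comparison, where 3 had an unadjusted p under 0.05 (21.5% of all genes did) and a limma fit without covariates called 2 higher and 5 lower, against 28.5% and 27.1% of all genes. Ctnnb1, β-catenin, which links cadherin tails to α-catenin and carries the Wnt signal, was at 6.08, 5.92, 6.02, 5.95 and 5.96 in GFP-naive and at 5.31, 5.66, 5.62 and 5.47 in GFP-crush. The crush libraries were all below the naive ones, and the fold change of -0.33 ± 0.14 (SE, adjusted p 0.127) missed the threshold. In limma without the covariates it was -0.47 with an adjusted p of 0.0111. In α9k1 Ctnnb1 had means of 6.16 ± 0.16 and 5.96 ± 0.28 with overlap.

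Ctnnd1 encodes p120-catenin, which keeps cadherins at the membrane. Ctnnd1 stood at 4.15, 4.22, 4.19, 4.48 and 4.13 in the GFP-naive libraries, and ran from 3.29 through a median of 3.61 to 4.10 in α9k1-naive. With crush, Ctnnd1 stood at 3.62, 3.17, 3.47 and 3.67 in GFP and at 3.67, 3.52, 3.12 and 2.71 in α9k1. GFP-crush lay wholly below GFP-naive, and the α9k1 groups overlapped. The difference amounted to -0.78 ± 0.24 (SE, adjusted p 0.0429) in GFP, lost in 2 fits (adjusted p 0.12 without GFP-naive 2, 0.146 without GFP-crush 2), and -0.37 ± 0.43 in α9k1. Ctnna1 (αE-catenin, the actin link in most cells) had -0.50 ± 0.18 (SE, adjusted p 0.0711) in GFP and was lost in 6 fits (adjusted p 0.106 to 0.208, without GFP-naive 2, 3 or 4, GFP-crush 1 or 2 or α9k1-crush 3). Ctnna1 shares exonic bases with Lrrtm2 on the opposite strand, which was itself lower there, and reads of the pair cannot be told apart because no strand setting was stated for the counting. The neuronal Ctnna2 (αN-catenin) and Ctnnd2 (δ-catenin) had -0.24 ± 0.16 and -0.32 ± 0.16 in GFP, and -0.36 ± 0.29 and -0.72 ± 0.28 in α9k1, and were not called. Without the covariates Ctnna2 had the opposite sign in α9k1 and was called higher, at 0.52 (adjusted p 0.0124). Ctnna3 had -0.61 ± 0.19 (SE, adjusted p 0.042) in GFP and was lost in 3 fits (adjusted p 0.165 without GFP-naive 2, 0.11 without GFP-crush 1, 0.159 without GFP-crush 2). Ctnnal1 was lower in the naive comparison at -0.73 ± 0.22 (SE, adjusted p 0.0264), and without α9k1-naive 6 it was at -0.31 with an adjusted p of 0.466.

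Among the 6 protocadherins outside the clusters, Pcdh7, Pcdh9, Pcdh10 and Pcdh1 were lower in the GFP crush comparison, and Pcdh9 was also lower in the α9k1 crush comparison. Pcdh9, a protocadherin of the nervous system at chr14:93013410-93890679, had the smallest adjusted p of the 48 in the GFP crush comparison. Pcdh9 was at 5.97, 6.07, 6.13, 5.99 and 5.87 in the GFP-naive libraries, and ran from 6.58 through a median of 6.93 to 7.21 in α9k1-naive. With crush, Pcdh9 was at 4.94, 5.02, 4.39 and 4.45 in GFP and at 6.00, 5.85, 6.18 and 5.68 in α9k1. GFP-crush was lowest, α9k1-naive highest, and GFP-naive and α9k1-crush lay between them and overlapped. The fitted difference was -1.13 ± 0.15 (SE, adjusted p 0.000282) in GFP, -1.12 ± 0.26 (SE, adjusted p 0.0234) in α9k1 and 0.55 ± 0.15 (SE, adjusted p 0.0153) in the naive comparison. Both crush calls were made in all 19 fits, and the naive call was lost once (adjusted p 0.157 without α9k1-naive 6). Without covariates the naive difference was 0.88 (adjusted p 6.81e-05).

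Pcdh7 (chr5:57717967-58133230) differed with crush in GFP libraries. Pcdh7 stood at 4.32, 4.34, 4.62, 4.84 and 4.19 in the GFP-naive libraries, and ran from 4.20 through a median of 4.62 to 4.68 in α9k1-naive. With crush, Pcdh7 stood at 2.96, 3.62, 3.26 and 2.75 in GFP and at 4.51, 3.95, 4.83 and 4.56 in α9k1. The 4 GFP-crush libraries were below all 15 others, and the other 3 groups overlapped. The fold change was -1.37 ± 0.23 (SE, adjusted p 0.00199) in GFP, called in all 19 fits, and -0.01 ± 0.41 (SE, adjusted p 0.993) in α9k1. For α9k1-crush versus GFP-crush it was 1.29 ± 0.50 (SE, adjusted p 0.439), and the interaction was 1.36 ± 0.47 (SE, adjusted p 0.201), neither of them called. In limma without the covariates the difference of α9k1-crush from GFP-crush was 1.31 with an adjusted p of 5.06e-05. Pcdh10, with a GFP-naive mean of 3.38 ± 0.23, had -0.88 ± 0.19 (SE, adjusted p 0.00739) in GFP, although GFP-crush 3 (3.40) lay within the naive range, and -0.85 ± 0.33 in α9k1, where its groups did not overlap. Pcdh1 had -0.60 ± 0.16 (SE, adjusted p 0.0213) and was lost without GFP-naive 2 (adjusted p 0.103). Pcdh11x was lower in the naive comparison at -0.68 ± 0.16 (SE, adjusted p 0.00762), called in all 19 fits, and Pcdh17 was not called.

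The 4 clustered protocadherins in the table lie on chromosome 18 and share their last exons with the neighbours of their cluster, so that reads can be divided among them in more than one way and their values are uncertain. The identifier listed for Pcdhga8 belongs to Pcdhgc4 in GENCODE M21. Pcdhac1 had large differences. Pcdhac1 lay at 3.13, 3.10, 3.57, 3.17 and 2.87 in the GFP-naive libraries, and ran from 1.18 through a median of 1.68 to 1.95 in α9k1-naive. With crush, Pcdhac1 lay at 2.95, 3.33, 3.23 and 3.12 in GFP and at 3.37, 2.15, 3.33 and 4.37 in α9k1. α9k1-naive lay below every other library, and the other 3 groups overlapped. Pcdhac1 had -1.52 ± 0.34 (SE, adjusted p 0.00556) in the naive comparison and 2.32 ± 0.62 (SE, adjusted p 0.0405) in the α9k1 crush comparison, which share the α9k1-naive libraries. The crush call was lost in 2 fits (adjusted p 0.104 without α9k1-naive 1, 0.187 without α9k1-naive 4). The interaction was 2.58 ± 0.71 (SE, adjusted p 0.104). Pcdhac2 was lower in α9k1-naive at -0.79 ± 0.28 (SE, adjusted p 0.0616), lost in 3 fits (adjusted p 0.125 without GFP-naive 4, 0.102 without α9k1-naive 5, 0.122 without GFP-crush 3), and was 1.31 ± 0.51 (SE, adjusted p 0.156) in the α9k1 crush comparison. Pcdhgc3 and Pcdhga8 were lower in the GFP crush comparison at -0.82 ± 0.24 (SE, adjusted p 0.0335) and -0.41 ± 0.11 (SE, adjusted p 0.0248), and the first was lost without GFP-crush 2 (adjusted p 0.113).

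In the synaptic group of 9 genes, 3 were lower, among them Nlgn3 and Cadm1, and Cadm3 was higher in the GFP crush comparison, and Cadm3 was the single call in the α9k1 crush comparison. Cadm3 (SynCAM3, an axonal protein that binds Cadm4 of Schwann cells, chr1:173333258-173367695) had the smallest adjusted p of the 48 in the naive comparison. Cadm3 stood at 4.35, 4.25, 4.19, 4.11 and 4.15 in the GFP-naive libraries, and ran from 1.65 through a median of 2.13 to 2.49 in α9k1-naive. With crush, Cadm3 stood at 4.99, 4.67, 4.77 and 4.66 in GFP and at 4.30, 4.07, 4.30 and 4.49 in α9k1. α9k1-naive lay below every other library, and GFP-crush above every other. limma gave a fold change of -2.12 ± 0.18 (SE, adjusted p 1.1e-06) in the naive comparison, 1.92 ± 0.33 (SE, adjusted p 0.00509) in the α9k1 crush comparison and 0.54 ± 0.18 (SE, adjusted p 0.063) in the GFP crush comparison. The first 2 were called in all 19 fits, although with only the 2 groups compared the α9k1 crush call was lost (1.92, adjusted p 0.204), and the third was lost in 5 (adjusted p 0.107 to 0.166, without GFP-naive 2, 3 or 4, α9k1-naive 4 or GFP-crush 1). The interaction was 1.38 ± 0.38 (SE, adjusted p 0.106). Cadm3 shares exonic bases with Ackr1 on the same strand.

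Some neuronal markers were lowest in α9k1-naive, as Cadm3 was. Among the 12 pan-neuronal markers, 4 were lower and 1 higher in the naive comparison. The neurofilament gene Nefm had means of 10.6 in GFP-naive, 8.26 in α9k1-naive, 11.4 in GFP-crush and 11.5 in α9k1-crush, and Kcns1 had 4.78, 1.67, 5.44 and 6.56. Of the 7 markers of large-diameter neurons and proprioceptors, to which Kcns1 belongs, 2 were higher and 2 lower in the naive comparison, and their summed log2 level ran from 10.6 to 10.9 in GFP-naive and from 11.6 to 12.0 in α9k1-naive. Spp1 was the most abundant of the 7, with means of 10.5 and 11.6 in those groups, whereas Pvalb had 6.17 and 4.40. Their part in the results for Cadm3, Nfasc and Pcdhac1 was not tested.

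Cadm1 (SynCAM1, a synaptic inducer, chr9:47530173-47857637) was called higher in α9k1-naive and lower with crush in GFP. Cadm1 was at 8.5, 8.34, 8.43, 8.49 and 8.33 in the GFP-naive libraries, and ran from 8.72 through a median of 8.84 to 9.0 in α9k1-naive. With crush, Cadm1 was at 7.53, 7.55, 7.89 and 8.05 in GFP and at 7.75, 8.37, 7.88 and 7.86 in α9k1. α9k1-naive was above GFP-naive, and GFP-crush below it, without overlap, and α9k1-crush lay wholly below α9k1-naive. This corresponded to a fold change of 0.47 ± 0.15 (SE, adjusted p 0.0399) in the naive comparison and -0.61 ± 0.15 (SE, adjusted p 0.0179) in the GFP crush comparison, each called in all 19 fits, and -0.81 ± 0.28 (SE, adjusted p 0.105) in the α9k1 crush comparison. The last missed the threshold, and in limma without the covariates it was -0.87 with an adjusted p of 1.42e-05. Cadm2 was lower in the naive comparison at -1.0 ± 0.19 (SE, adjusted p 0.00166) with overlapping groups, and at -0.48 (adjusted p 0.0638) without the covariates. Cadm4, the glial partner of Cadm3, was at -0.41 ± 0.31 in the GFP and -1.43 ± 0.56 in the α9k1 crush comparison and was called in neither. In limma without the covariates its α9k1 difference was -0.83 (adjusted p 0.00816).

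Nlgn3 encodes a neuroligin of the postsynaptic membrane. Nlgn3 stood at 4.47, 4.39, 4.41, 4.65 and 4.25 in the GFP-naive libraries, and ran from 4.53 through a median of 4.64 to 4.85 in α9k1-naive. With crush, Nlgn3 stood at 3.42, 3.76, 3.89 and 3.62 in GFP and at 4.53, 4.27, 4.37 and 4.15 in α9k1. The 4 GFP-crush libraries were below all others. The log2 fold change came to -0.74 ± 0.14 (SE, adjusted p 0.00395) in GFP, called in all 19 fits, and -0.52 ± 0.25 (SE, adjusted p 0.248) in α9k1. Nlgn3 shares exonic bases with Gm21986 on the same strand. Nrxn2, Nrxn3 and Nlgn1 were called in no comparison with the covariates, with values of -0.03 ± 0.17, -0.43 ± 0.26 and -0.45 ± 0.37 in the GFP crush comparison. In the α9k1 one Nrxn3 had -0.55 ± 0.47, and 0.59 (adjusted p 0.0471) without the covariates.

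Among the 9 axonal immunoglobulin molecules, Ncam2, Chl1, Ncam1 and L1cam were lower in the GFP crush comparison. In the α9k1 crush comparison Ncam1 was lower and Nfasc higher. Ncam1, the neural cell adhesion molecule of neurons and non-myelinating Schwann cells, lies at chr9:49502136-49798925. Ncam1 was at 6.91, 6.94, 6.82, 6.97 and 6.74 in the GFP-naive libraries, and ran from 7.13 through a median of 7.45 to 7.66 in α9k1-naive. With crush, Ncam1 was at 5.84, 6.29, 6.30 and 5.73 in GFP and at 6.25, 6.74, 6.27 and 6.31 in α9k1. Crush libraries were below the naive libraries of their own background without overlap. The difference amounted to -0.79 ± 0.17 (SE, adjusted p 0.00944) in GFP and -1.36 ± 0.31 (SE, adjusted p 0.0214) in α9k1, each called in all 19 fits, but the α9k1 call was lost with only the 2 groups compared (-1.58, adjusted p 0.182). Ncam2, its relative known from olfactory axons, went from 4.71 ± 0.21 (SD, n = 5) to 3.39 ± 0.27 (n = 4) at -1.37 ± 0.18 (SE, adjusted p 0.000352), the largest fall of the 48 in that comparison together with Pcdh7. In α9k1 Ncam2 had 5.12 ± 0.21 (n = 6) and 3.90 ± 0.21 (n = 4), which did not overlap, and a fold change of -0.90 ± 0.33 (SE, adjusted p 0.13).

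L1cam, which promotes axon growth and bundling, lies on the X chromosome at chrX:73853778-73896105. L1cam stood at 6.53, 6.43, 6.42, 6.52 and 6.44 in the GFP-naive libraries, and ran from 6.15 through a median of 6.84 to 7.34 in α9k1-naive. With crush, L1cam stood at 5.47, 5.96, 5.44 and 5.66 in GFP and at 7.09, 7.28, 7.54 and 7.03 in α9k1. The 4 GFP-crush libraries were below all others, and the α9k1 groups overlapped. The fitted difference was -0.62 ± 0.19 (SE, adjusted p 0.0399) in GFP, lost without GFP-naive 3 (adjusted p 0.113), and -0.37 ± 0.34 (SE, adjusted p 0.574) in α9k1, where it was 0.40 (adjusted p 0.0922) without covariates. For α9k1-crush versus GFP-crush L1cam gave 0.26 ± 0.41 (SE, adjusted p 0.907) with the covariates and 1.60 (adjusted p 1.26e-05) without them. L1cam shares exonic bases with Arhgap4 on the same strand. Chl1, a close homologue of L1cam, had -1.07 ± 0.23 (SE, adjusted p 0.00904) in GFP, called in all 19 fits, and -0.55 ± 0.42 in α9k1.

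Nfasc (neurofascin, which gathers sodium channels at nodes of Ranvier and initial segments, chr1:132564690-132741797) was low in α9k1-naive. Nfasc lay at 3.15, 2.90, 2.48, 3.34 and 3.19 in the GFP-naive libraries, and ran from 1.60 through a median of 1.86 to 2.37 in α9k1-naive. With crush, Nfasc lay at 3.20, 3.38, 3.06 and 2.95 in GFP and at 3.75, 3.27, 3.73 and 3.40 in α9k1. α9k1-naive lay below every other library, and the other 3 groups differed less. The fold change was -1.30 ± 0.20 (SE, adjusted p 0.000376) in the naive comparison, called in all 19 fits, and 1.20 ± 0.37 (SE, adjusted p 0.0706) in the α9k1 crush comparison, called in 9 of them. The 10 losses of the latter were at an adjusted p of 0.101 to 0.161, without GFP-naive 1 or 4, α9k1-naive 1, 2 or 4, GFP-crush 1 or 2 or α9k1-crush 1, 3 or 4. Nrcam, the nodal partner of Nfasc, was lower in α9k1-naive at -0.67 ± 0.23 (SE, adjusted p 0.0561), lost in 3 fits (adjusted p 0.126 without GFP-naive 2, 0.301 without α9k1-naive 6, 0.112 without α9k1-crush 3). Cntn1, the axonal contactin of the paranode, had means of 6.31 ± 0.12 in GFP-naive and 6.25 ± 0.40 in α9k1-naive. Its fold change of -0.71 ± 0.26 (SE, adjusted p 0.0689) came with the covariates, and without them it was -0.06 with an adjusted p of 0.894. Cntn1 was also lost in 6 fits (adjusted p 0.101 to 0.141, without GFP-naive 1 or 5, α9k1-naive 5, GFP-crush 2 or 3 or α9k1-crush 3). Cntn2 and Cntn4 were not called with the covariates. In limma without them Cntn4 was at 1.03 (adjusted p 0.00404) in the naive comparison and 1.11 (adjusted p 0.00484) in α9k1-crush versus GFP-crush. The Cntn4 libraries did not overlap in either. In the latter comparison Cntn2 was at -1.12 with the covariates and at 0.77 (adjusted p 0.0708) without them.

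**Figure D4:**
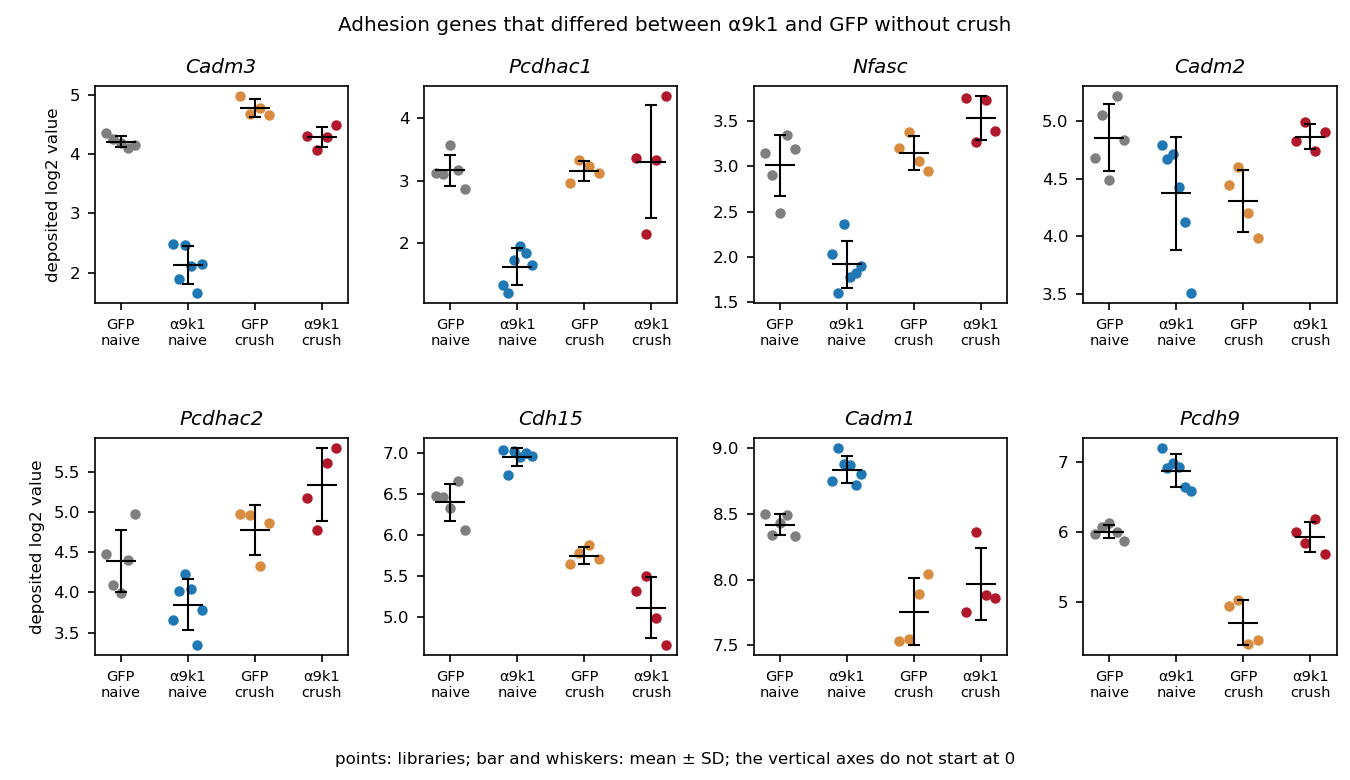
Deposited log2 value of 8 adhesion genes called in the naive comparison in each library (points), with the mean ± SD of each group. For Cadm3, Pcdhac1 and Nfasc the 6 α9k1-naive libraries lie below every other library, and for Cdh15, Cadm1 and Pcdh9 they lie above every other.

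The crush comparisons in GFP and in α9k1 share no library, while the naive comparison shares the GFP-naive libraries with the first and the α9k1-naive libraries with the second. All 23 adhesion genes called lower in the GFP crush comparison had a log2 fold change below 0 in the α9k1 crush comparison (100%), where 74.4% of all genes called lower did. That count rests on the covariates, since the group means alone gave 21 of the 23 (91.3%, and 76.6% of all genes called lower), with L1cam at 0.40 (adjusted p 0.0922 in limma without covariates) and Cdh4 at 0.25. With the covariates Pcdh7 was at -0.01, and fits that left out 1 library reached 0.31 for Pcdh7 and 0.28 for Cdh4. Of the 23, 5 were also called lower (21.7%), close to the 19.5% of all genes. Both higher genes were also called higher, as were 17.0% of all genes called higher. The SEs of the α9k1 comparison were larger than those of the GFP one, for Cdh1 0.34 against 0.19, and the test of a difference between the comparisons, the interaction, called none of the 48. The smallest adjusted p of the interaction were 0.104 for Pcdhac1 and 0.106 for Cadm3, and next came Cdh15 at -1.19 ± 0.39 (SE, adjusted p 0.175) and Cdh18.

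**Figure D5:**
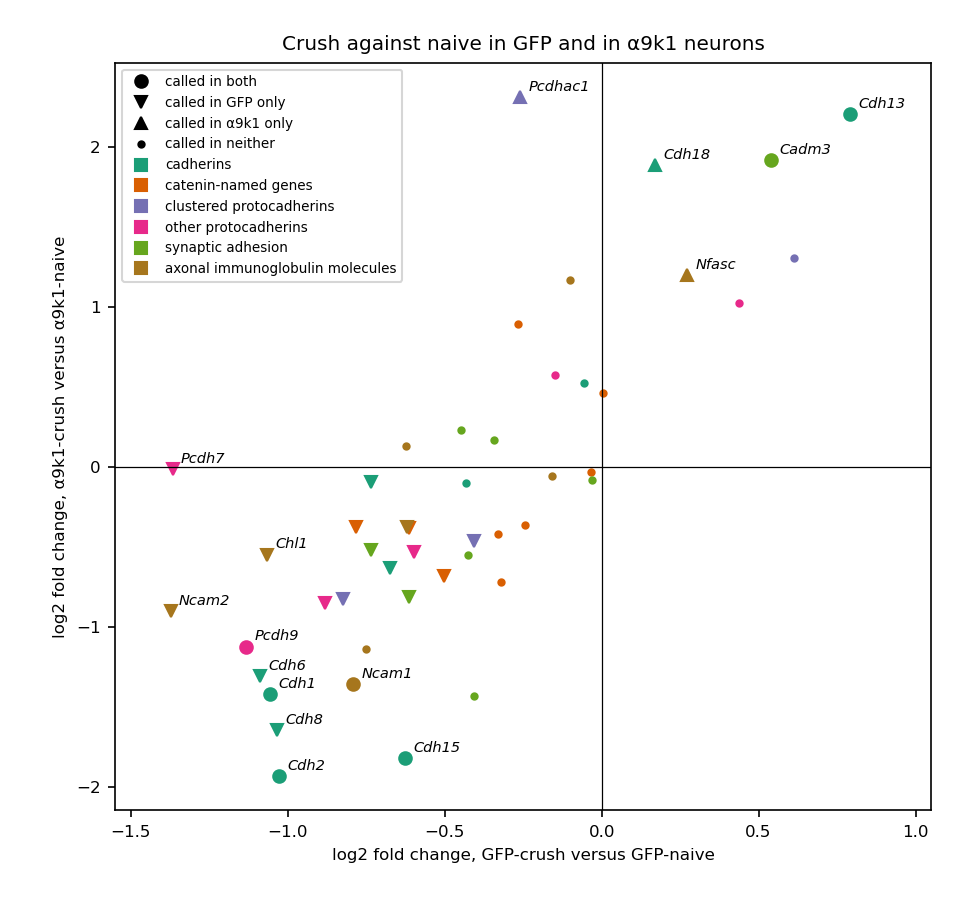
Log2 fold change of 47 of the 48 adhesion genes in the GFP crush comparison (horizontal) and in the α9k1 crush comparison (vertical), with colours for roles and symbols for where a gene was called. All 22 genes drawn and called lower in GFP lie below 0 on the vertical axis in this fit with covariates, where the group means alone put L1cam and Cdh4 above 0, and Cdh13 and Cadm3 are the pair called higher in both.

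With crush, the test of α9k1 against GFP had little precision under the covariates. The largest log2 fold changes were 1.32 ± 0.62 (SE, adjusted p 0.547) for Cdh18, 1.29 ± 0.50 (SE, adjusted p 0.439) for Pcdh7 and -1.40 ± 0.68 (SE, adjusted p 0.572) for Cadm4. The deposited values of several members did not overlap between α9k1-crush and GFP-crush. Nrcam had a mean of 4.58 ± 0.48 (SD, n = 4) against 3.51 ± 0.06 (n = 4), and Cdh4 had 3.70 ± 0.47 against 2.52 ± 0.42. For 4 against 4 libraries without overlap the 2-sided exact permutation p was 0.0286, the smallest that this design can give, and it was not adjusted over the 192 such tests made. Of the variance of the 3 covariates, 34.5, 52.2 and 74.5% lay between groups.

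Genes related to the 48 were counted in the same way. In the GFP crush comparison 15.7% of all genes were lower and 7.39% higher, with a median of -0.08, and the counts of these lists stand against those shares. Of 14 other cadherin superfamily and junction genes in the table, 4 were lower there (Celsr2 at -1.60 ± 0.30, Fat1 at -1.15 ± 0.27, Arvcf at -0.58 ± 0.15 and Clstn1 at -0.53 ± 0.18) and none was higher, with a median over the list of -0.38. Fat1, a giant cadherin, was also lower in the α9k1 crush comparison at -2.04 ± 0.48. Of 37 other synaptic adhesion and organizer genes, with a median of -0.38, 11 were lower and none was higher in the GFP crush comparison, including Lrrtm2 (a neurexin ligand, -0.97 ± 0.21), Adgrl3 (latrophilin-3, -0.82 ± 0.18) and Lrrc4c (a ligand of netrin-G1, -0.82 ± 0.17). In the α9k1 crush comparison 3 of the 37 were higher and 3 lower, against 4.47% and 5.27% of all genes. Ntng1 (netrin-G1) was higher there at 3.79 ± 0.83, with an interaction of 3.59 ± 0.95 (limma adjusted p 0.0927). That interaction was the single one called in the list, where 1.35% of all genes were called higher and 0.847% lower.

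Of 20 other axonal immunoglobulin, ankyrin and node genes, 8 were lower and none was higher in the naive comparison, with a median of -0.35, where 17.6% of all genes were lower and 11.4% higher, with a median of -0.08. They included Cntnap1 (the paranodal partner of contactin-1, -1.13 ± 0.17) and Ank3 (ankyrin-G of nodes and initial segments, -0.81 ± 0.20), beside the lower Nfasc and Nrcam above. In the GFP crush comparison 5 of these 20 were lower and the median was -0.36. The lower ones were led by Alcam at -0.97 ± 0.18 and Lsamp at -0.94 ± 0.14, and Epb41l3 was higher at 0.37 ± 0.13. Of 12 sheddases and γ-secretase subunits, which cut cadherins and neurexins from the membrane, with a median of -0.28, 5 were lower and none was higher in the GFP crush comparison, among them Adam10 (-0.85 ± 0.27) and Adam17 (-0.67 ± 0.18). None of the 12 was called in either direction in the α9k1 crush comparison, where 4.47% of all genes were higher and 5.27% lower. There 1 of the 12 had an unadjusted limma p under 0.05, as did 21.5% of all genes. A fit without covariates called 3 higher and 1 lower, against 28.5% and 27.1% of all genes.

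As a group the 48 differed from all genes in a feature the rule did not use. Their longest annotated transcript had a median of 5533 bases, against 2894 bases over all genes with an annotated transcript, with a GC content of 47.4% against 49.7%. The median of their mean log2 level was 4.28, close to the 4.37 of all genes. After the trends of each library with GC content and length had been removed, 19 were lower and 3 higher in the GFP crush comparison. Of all genes, 15.4% were lower and 6.2% higher in that fit.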

How the data were processed

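RNA of GFP-sorted DRG cells was sequenced in 19 libraries, of which 11 came without crush (GFP, 5, and α9k1, 6) and 8 with crush (4 of each). Per the labels and the study's methods, the authors aligned reads with STAR to mm10, took alignment metrics with Picard and quantified genes with Salmon; versions are not given in the sources used here. Before depositing, the authors removed genes with few reads in most samples, transformed to log2 with a small pseudocount and corrected sequencing depth and gene length with cqn. The deposited log2 values for 12629 genes were the measurement here, so gene counts and any interval from them were not at hand. The deposited Picard metrics hold read counts, percentages, ratios and fractions per library as the authors made them. The matrix has no gene names: its rows were taken to follow the deposited annotation table, which was checked with marker genes.

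limma 3.58.1 (R 4.3.3) was fitted to all 19 libraries with the 4 group means and the first 3 principal components of 48 scaled metrics, with Benjamini-Hochberg adjustment over all genes. The study's model also had a batch term, which the labels do not give. The fit was tested on simulated data. Exact permutation tests were two-sided. Sums of markers were of 2 to the power of the log2 values. Members, lists and tests were chosen with earlier results of these data known. The genes named were 36 anchors listed by role (Cdh5 and Nlgn2 were not in the table), up to 6 called members with the largest and 6 with the smallest fold change in each comparison, and up to 8 called in the interaction. Ctnna3, Ctnnal1, Pcdh1, Pcdh11x, Pcdh17, Pcdhga8, Pcdhgc3 and genes of the other lists lie outside that rule and were chosen with their values seen. The values of 1 member, which is in all counts, are not reported here. The authors' columns of fold changes and p-values between groups were not used. Alternatives left out the covariates, the other groups, low genes or 1 library, or changed scaling, GC and length correction, blocking or the threshold.

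The log2 scale carries no depth: 36.4 M to 87.6 M read pairs per library and the within-group spread set the precision. Promoters were looked up for members off chromosome 18. Exons shared with other genes and promoter coordinates came from GENCODE M21 and NCBI RefSeq on GRCm38. Figures were drawn with matplotlib 3.10.9 and tables made with pandas 2.3.3 and Python 3.11.15.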

Additional observations from a re-analysis of the deposited data

Results flagged for a closer look

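In 9 of 152 checks of the named adhesion genes, the highest or lowest library of a group lay apart from the others by Dixon's criterion, and chance flags about 1 in 20 groups. In GFP-naive, Cdh2 was highest in library 1 at 4.956, Ctnnd1 and Cadm4 were highest in library 4 at 4.48 and 4.585, Nrxn2 was lowest in library 3 at 2.657 and Cntn4 was lowest in library 5 at 2.503. In α9k1-naive, Cdh15 was lowest in library 2 at 6.736 and Cdh11 was lowest in library 6 at 3.497. In α9k1-crush, library 2 was highest for Ncam1 at 6.742 and lowest for Nrxn3 at 3.355.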

How the results depend on the processing

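The number of adhesion genes called depended on the covariates and on the libraries fitted. Without the covariates, calls higher and lower were 12 and 14 in the naive comparison, 26 and 8 in α9k1-crush versus GFP-crush, 1 and 28 in the GFP crush comparison, 13 and 20 in the α9k1 crush comparison, and 20 and 4 for the interaction. With only the libraries of the 2 groups compared, 1 was higher and 11 lower in the GFP crush comparison, and 1 and 2 in the α9k1 one. In the naive comparison median centring gave 7 higher and 9 lower, against 13.1% and 13.7% of all genes, and quantile normalization 5 and 9, against 12.8% and 15.5%. Removal of GC and length trends gave 5 higher and 12 lower there, against 12.1% and 17.7%. The filter on low values gave 1 higher and 0 lower for the interaction, against 1.59% and 1% of all genes. At an adjusted p under 0.05, 1 was higher in the GFP crush comparison. The cause was not tested.

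Deviations of same-numbered libraries from their group means had a median r of 0.02 over 25 pairs, 4 of them over 0.1. Other pairs had a median r of 0.0002 over 109 pairs, 15 of them over 0.1. The numbers were not taken as pairs, and whether same-numbered libraries shared a preparation was not tested. A fit with a replicate block gave 6 higher and 6 lower in the naive comparison, 0 and 23 in the GFP crush comparison, and 1 and 2 in the α9k1 one. Over all genes it gave 8.96% and 10.4%, 6.88% and 14.8%, and 1.23% and 1.39% in the same order. The block kept 2 of the 10 α9k1 crush calls (Cdh2 and Cadm3), 22 of the 25 GFP crush calls (all but Cdh4, Cdh13 and Cadm3) and 5 of the 13 naive calls (Cadm1, Cadm3, Nfasc, Pcdhac1 and Cntn1).

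Leaving out 1 library at a time, higher calls ranged from 3 to 5 in the naive comparison, from 0 to 3 in the GFP and from 2 to 8 in the α9k1 crush comparison, and from 0 to 2 for the interaction. Lower calls ranged from 8 to 12, from 17 to 24, from 5 to 11 and from 0 to 1 in the same order. The shares of all genes moved too. Their higher calls ranged from 9.28 to 11.8%, 3.52 to 8.17%, 2.17 to 6.14% and 0.538 to 2.12% in that order. Their lower calls ranged from 12.5 to 18.4%, 8.37 to 17%, 2.97 to 7.66% and 0.348 to 1.37%. α9k1-crush versus GFP-crush stayed at 0 in both directions, where 0.459 to 0.998% of all genes were higher and 0.0158 to 0.325% lower. The count moved by over 1.5 times without α9k1-naive 5 (5 higher, naive), without GFP-naive 2 (0 higher, GFP crush), and without GFP-naive 3 or 4, α9k1-naive 4 or GFP-crush 1 or 2 (1 higher, GFP crush). In the α9k1 crush comparison it moved without α9k1-naive 1 or 4 (2 higher), α9k1-crush 2 (8 higher, 11 lower), GFP-naive 4 (9 lower) or α9k1-naive 6 (8 lower). For the interaction it was 1 higher without GFP-naive 1 or α9k1-naive 1, 3 or 5, and 2 higher and 1 lower without α9k1-crush 2. No call made in the fit with the covariates and all 19 libraries changed direction under any of these settings. Genes not called in that fit could change sign. For α9k1-crush versus GFP-crush, Ctnna2 was at -0.21 with the covariates and at 0.85 (limma adjusted p 0.000748) without them. Pcdh10 was at 0.02 and -0.80 (limma adjusted p 0.00314) in the same 2 fits.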
